A study of Mus musculus with 40 samples.

Results

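The transcripts described here are those of 8 mouse genes, taken as a named list, that encode 5 CXC chemokines of the ELR class (*Cxcl1*, *Cxcl2*, *Cxcl3*, *Cxcl5* and *Cxcl15*) and 3 colony-stimulating factors (*Csf1*, *Csf2* and *Csf3*). All 8 were in the count table, and all 8 passed the minimum of 10 counts over the 40 libraries, among 25210 genes tested. Poly(A) RNA was sequenced from cardiac fibroblasts of TAK1fl/fl mice on the C57BL/6J background, in which loxP sites flank exon 2 of *Map3k7*, the gene of TGFβ-activated kinase 1 (TAK1). Cells at passage 1 were transduced with an adenovirus carrying LacZ, which leaves TAK1 intact, or iCre, a Cre recombinase, in both cases under the broadly active CMV promoter. They were then kept without serum and received no ligand (Con), bFGF at 20 ng/ml, TGFβ at 10 ng/ml, IL-1β at 15 ng/ml or TNFα at 10 ng/ml over a period of 24 h. The 10 groups of virus by ligand held 4 libraries each, which the study describes as biological replicates from male adult mice. Every group, the controls included, carried the floxed alleles and an adenovirus, had been expanded in medium with bFGF, and contained a cultured cell population rather than a clone or sorted cells.

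ELR chemokines carry a glutamate-leucine-arginine motif ahead of the first cysteine pair and bind CXCR2 (and CXCR1) on neutrophils, which they draw from the blood into injured tissue. The colony-stimulating factors act on the same lineage at other steps. *Csf3* encodes G-CSF, which drives neutrophil production and release, *Csf2* encodes GM-CSF, which acts on granulocytes, macrophages and dendritic cells, and *Csf1* encodes M-CSF, the survival factor of macrophages. In stromal cells, IL-1 and TNF receptors signal through TAK1 to NF-κB and to stress kinases, and transcripts of this kind are also controlled by the stability of their mRNA through AU-rich elements in the 3′ UTR.

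Library totals ran from 25360947 to 66160732 counts, with a median of 36183962. Levels are given as CPM, the count scaled to library size, after TMM scaling over the 40 libraries. The 8 fibroblast markers (collagens, *Pdgfra*, *Ddr2*, *Dcn*, *Thy1* and *Tcf21*) had counts in every library, with a summed level of 10070 to 66860 CPM. Of 8 neutrophil markers, *S100a9* was at 0 in all 40 libraries and *Retnlg* in 39, and the 6 that were tested summed to at most 1.47 CPM. The 6 macrophage markers summed to 19.0 to 180 CPM, and *Ptprc*, a marker of all leukocytes, reached 2.08 CPM. Libraries numbered replicate 2 stood apart: they had the highest summed level of 4 endothelial markers in 10 of 10 groups (4.81 to 13.5 CPM) and the lowest of 3 pericyte and smooth muscle markers in 10 of 10 groups (61.3 to 450 CPM). Their cardiomyocyte markers were likewise the lowest in 10 of 10 groups (0.57 to 14.7 CPM), and their macrophage markers in 7. *Cxcl5* was highest in replicate 2 in 8 of the 10 groups, and *Csf1* was lowest there in 8. Several sums rest mainly on a single gene. Among cardiomyocyte markers *Tnnt2* had 21428 counts, while *Myh6* was at 0 in 37 libraries and *Actc1* in 31. *S100a8* had the most neutrophil marker counts (240), with *Ly6g* at 0 in 35 libraries. *Rgs5* had 863865 counts, against 2372 for *Myh11* and 3706 for *Kcnj8*. *Col1a1*, *Col1a2* and *Col3a1* led the fibroblast sum. A shift in a sum can thus be a shift in these genes rather than in cell number. The part of these cell types in the levels was not tested, and in bulk RNA fewer producing cells and less RNA per cell cannot be told apart.

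*Map3k7*, the targeted gene, was at 153 ± 6.51 CPM in LacZ Con and 127.5 ± 4.27 CPM in iCre Con (SD, n = 4 each). Under IL-1β its level was 220 ± 17.85 and 126 ± 4.07 CPM. The groups did not overlap under any ligand, and the difference passed the test with TGFβ, IL-1β and TNFα (edgeR quasi-likelihood test, log2 −0.67, −0.82 and −0.71) but not in Con (log2 −0.28, adjusted p = 0.137) or with bFGF (log2 −0.40, adjusted p = 0.351), where the fit blocked by replicate number called it (adjusted p = 0.00393 and 0.000409). These counts cover the whole gene, so they do not measure the loss of exon 2 itself.

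The 5 chemokine genes lay on chromosome 5 (GRCm38), on the plus strand, within 146.6 kb that also hold *Ppbp* and *Pf4*. *Cxcl5* was at 90759360-90761624, *Cxcl3* at 90786103-90789600, *Cxcl15* at 90794534-90803067, *Cxcl1* at 90891241-90893115 and *Cxcl2* at 90903871-90905938. *Csf2* (54247271-54249667, minus strand) and *Csf3* (98701263-98703629, plus strand) lay on chromosome 11, and *Csf1* (107741048-107760469, minus strand) on chromosome 3. RefSeq promoter windows of GRCm38.p6 matched 6 of the 8 genes. The 250 bases ahead of the start were searched on both strands for the NF-κB consensus site (κB), and the stretches from 200 to 51 bases ahead of the start are shown for 5 genes because *Cxcl1*, *Cxcl2* and *Cxcl3* held the same κB match while *Cxcl15* held none. Capitals mark the κB match.
Cxcl1, chr5:90891045-90891194, strand plus: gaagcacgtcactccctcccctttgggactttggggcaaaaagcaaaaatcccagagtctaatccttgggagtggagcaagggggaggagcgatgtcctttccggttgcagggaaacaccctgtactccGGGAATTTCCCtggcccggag
Cxcl2, chr5:90903699-90903848, strand plus: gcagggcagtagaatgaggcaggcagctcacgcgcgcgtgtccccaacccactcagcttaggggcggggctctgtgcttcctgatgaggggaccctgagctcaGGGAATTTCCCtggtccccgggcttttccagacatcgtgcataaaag
Cxcl3, chr5:90785901-90786050, strand plus: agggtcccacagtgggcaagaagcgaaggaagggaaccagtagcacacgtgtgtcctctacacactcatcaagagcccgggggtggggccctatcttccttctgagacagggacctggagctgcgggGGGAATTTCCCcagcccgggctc
Cxcl15, chr5:90794334-90794483, strand plus: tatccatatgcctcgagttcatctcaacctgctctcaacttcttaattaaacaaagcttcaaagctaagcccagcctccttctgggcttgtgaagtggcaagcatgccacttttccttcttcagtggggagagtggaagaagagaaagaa
Csf1, chr3:107760520-107760669, strand minus: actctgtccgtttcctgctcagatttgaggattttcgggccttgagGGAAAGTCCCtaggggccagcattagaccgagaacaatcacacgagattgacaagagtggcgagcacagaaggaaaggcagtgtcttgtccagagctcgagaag

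The same 11 bases, GGGAATTTCCC, which hold 2 overlapping matches, stood 71, 97 and 73 bases ahead of the start in *Cxcl1*, *Cxcl2* and *Cxcl3*. *Csf1* held a single different match, GGAAAGTCCC, at 154 bases. Of 32536 promoter windows of that length, 7.3% held a κB match. The AP-1 letters TGANTCA were in none of the 6 windows and in 6.7% of all, TATAAA was in those of *Cxcl3* and *Cxcl15* and in 12.3% of all, and the C/EBP letters TTNNGNAA were in those of *Cxcl2* and *Csf2* and in 36.8% of all. The RefSeq start of *Csf2* was 232 bases from the GENCODE start, so its window is not shown, and for the other 5 genes the starts differed by at most 28 bases. A match of letters is not a measurement of binding.

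In the longest annotated 3′ UTR of each gene (GENCODE M21), the AU-rich pentamer ATTTA occurred 11 times in *Cxcl2*, 9 in *Csf2*, 7 in *Cxcl1*, 6 in *Csf3*, 5 each in *Cxcl3* and *Cxcl5*, 4 in *Csf1* and 2 in *Cxcl15*. The median over 21685 genes was 1, and 36.8% of them had none. Per kilobase of 3′ UTR, *Csf2* had 28.1, *Cxcl1* 11.8 and *Csf3* 8.93, whereas *Csf1* had 1.89 and *Cxcl15* 1.26, against a median of 1.15 over all these genes. *Csf1* and *Cxcl15* were thus the members with the fewest per kilobase.

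Unstimulated fibroblasts held mostly *Csf1*. Its level in the LacZ Con libraries was 458, 349, 392 and 449 CPM for replicates 1 to 4. *Cxcl5* was at 18.7, 43.6, 13.98 and 22.5 CPM, *Cxcl1* at 7.39, 8.19, 6.89 and 7.18 CPM, and *Cxcl15*, first described as a lung chemokine, at 1.18, 2.59, 1.42 and 0.697 CPM. *Cxcl2*, *Cxcl3*, *Csf2* and *Csf3* were barely detected, reaching at most 11 counts in any of these libraries. Per kilobase of exon, the level fell from *Csf1* (78.0 ± 9.64 CPM per kb) to *Cxcl5* (13.3 ± 7.01), *Cxcl1* (3.95 ± 0.299) and *Cxcl15* (0.692 ± 0.378), with no overlap between neighbours in this order, while the ranges of *Cxcl2*, *Csf3*, *Cxcl3* and *Csf2* each overlapped that of the next.

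**Figure D1:**
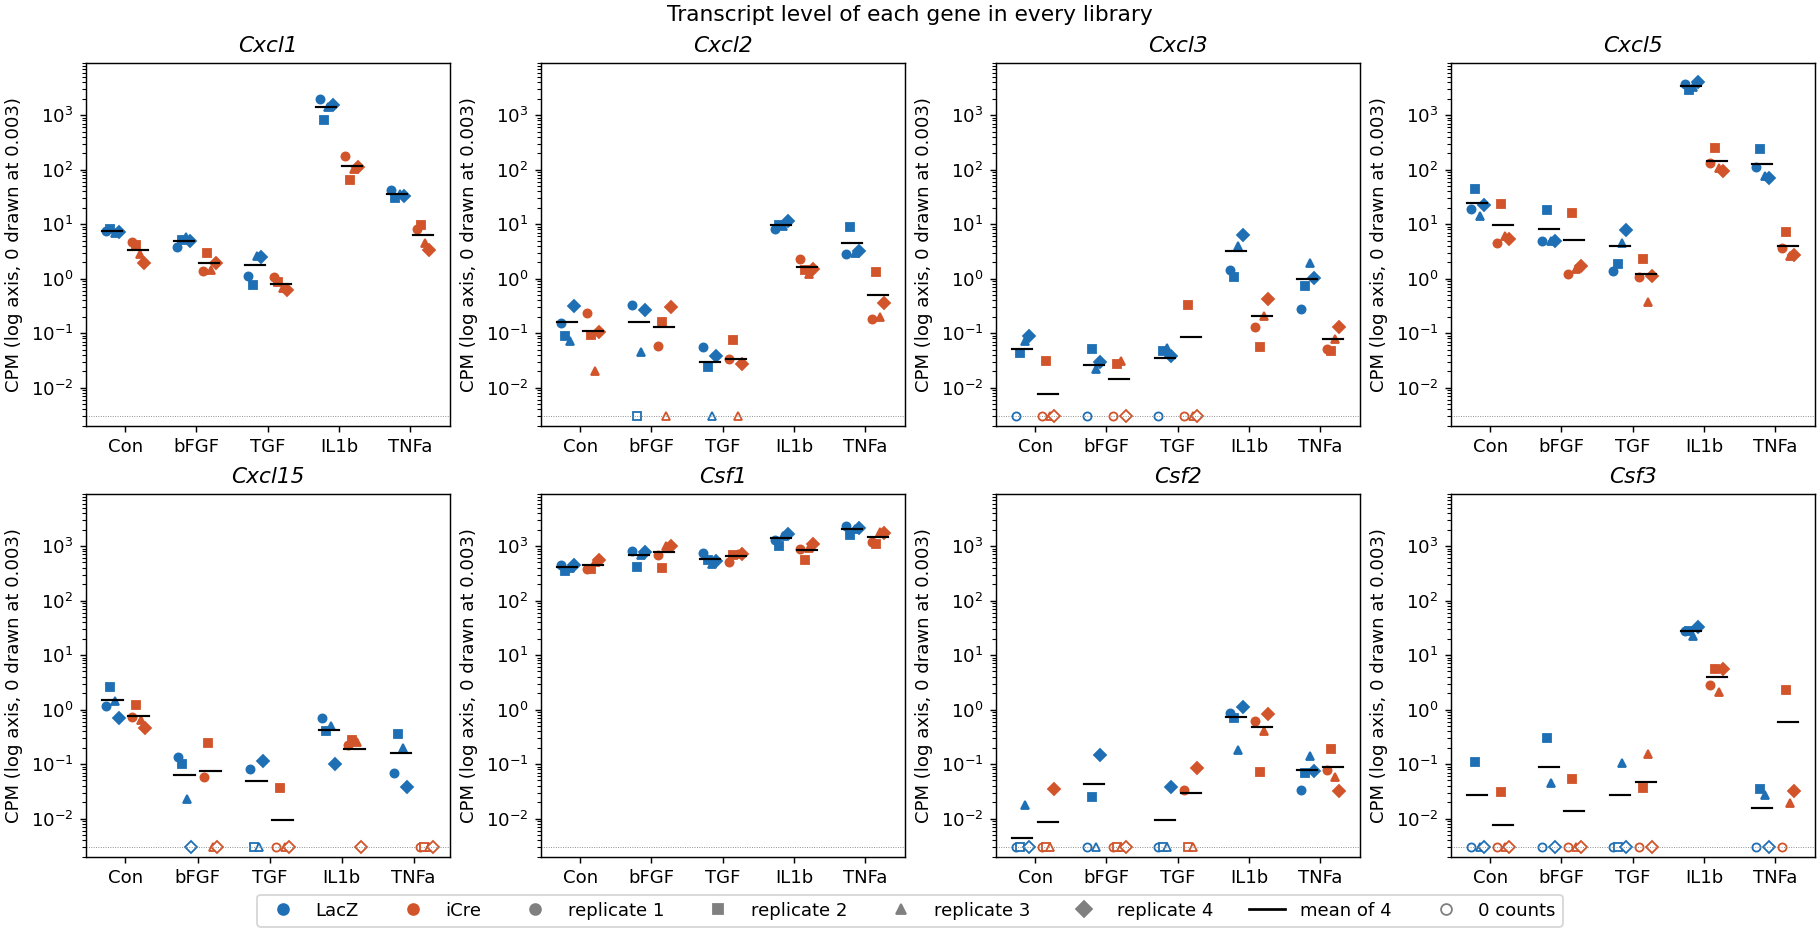
Level of each gene in every library, in CPM on a log axis (libraries with 0 counts are open symbols on the dotted line), by ligand; blue is LacZ, orange iCre, the symbol shape gives the replicate number and the bar is the mean of 4. *Cxcl1*, *Cxcl5* and *Csf3* were highest with IL-1β, at 1419, 3445 and 27.7 CPM on average in LacZ, and *Csf1* was highest with TNFα, at 2029 CPM.

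The response of TAK1-intact cells to IL-1β asks which of these attractants a fibroblast makes when it meets the cytokine. *Cxcl5* reached 3703, 2835, 3257 and 3986 CPM and *Cxcl1* reached 1969, 804, 1401 and 1501 CPM. No library overlapped with Con for either gene. The log2 fold change over Con was 7.59 ± 0.30 (SE) for *Cxcl1* (adjusted p = 6.29e-07) and 7.15 ± 0.39 for *Cxcl5* (adjusted p = 3.23e-06; edgeR quasi-likelihood test with Benjamini-Hochberg adjustment over 25210 genes, as for all values below). *Cxcl2* rose to 8.01, 9.77, 9.36 and 11.6 CPM (log2 6.00 ± 0.38). *Cxcl3* rose to 1.42, 1.06, 3.92 and 6.21 CPM (log2 5.91 ± 0.78), with the widest relative spread of the 4 induced chemokines. Annotated transcripts of *Cxcl2* and *Cxcl3* shared 67 stretches as long as a read, out of 3673 in *Cxcl3*, and no other pair of members shared any.

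Among the colony-stimulating factors, *Csf3* went from 0, 5, 0 and 0 counts in Con to 28.2, 27.7, 21.9 and 33.1 CPM with IL-1β. The fitted log2 difference was 9.83 ± 0.51, the largest of the 8. *Csf2* had 26, 26, 5 and 45 counts with IL-1β and 1 count over the 4 Con libraries, a ratio of 137 with a 95% exact interval of 24.0 to 5447 that covers counting error only. On the opposite strand *Csf2* overlaps *Gm12223*, an antisense gene with 49 counts in LacZ IL-1β and 3 in iCre IL-1β, and since the strand setting of the counting is not given in the sources used here, reads of the pair may not be fully separated. *Csf1* rose to 1308, 983, 1529 and 1694 CPM (log2 1.75 ± 0.18, adjusted p = 0.00016).

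*Cxcl15* went the other way, to 0.695, 0.407, 0.498 and 0.0997 CPM (log2 −1.79 ± 0.54, adjusted p = 0.0406). This call was lost when replicate 1, 2 or 3 was left out in both groups (adjusted p = 0.0571, 0.0998 and 0.147). Counting both directions, 7 members were higher and 1 was lower with IL-1β, where 11.1% of all genes tested were higher and 9.55% lower. Between Con and IL-1β libraries the summed cardiomyocyte markers (14.7 to 111 and 0.57 to 1.85 CPM) and neutrophil markers (0.067 to 0.124 and 0.679 to 1.47 CPM) did not overlap, and their part in the response was not tested. Per kilobase the order in LacZ IL-1β was *Cxcl5* (1849 ± 272 CPM per kb), *Cxcl1* (757 ± 255), *Csf1* (261 ± 58.2), *Csf3* (19.6 ± 3.23) and *Cxcl2* (4.69 ± 0.725), none overlapping the next, and then *Cxcl3* (0.901 ± 0.686) and *Csf2* (0.896 ± 0.498), which overlapped.

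With TNFα the member highest per kilobase in LacZ cells was *Csf1* (384 ± 55.7 CPM per kb), at 2313, 1620, 2054 and 2130 CPM (log2 2.30 ± 0.15, adjusted p = 1.07e-05). *Cxcl1* was at 42.3, 30.7, 35.5 and 33.5 CPM (log2 2.26 ± 0.11) and *Cxcl5* at 110, 241, 77.1 and 70.1 CPM (log2 2.34 ± 0.46), both above every Con library. *Cxcl2* reached 2.85, 8.84, 3.01 and 3.26 CPM (log2 4.87 ± 0.57), with replicate 2 well above the others. *Cxcl3* reached 0.271, 0.734, 1.94 and 1.02 CPM (log2 4.24 ± 0.76). *Csf2* had 1, 2, 5 and 2 counts, and its call (adjusted p = 0.038) was lost with any replicate left out (adjusted p = 0.0903 to 0.158) and with the replicate block (0.0998). The group ratio of its counts over Con was 15.0, with a 95% exact interval of 2.14 to 651. *Csf3* had 2 counts over the 4 libraries and was not called, and *Cxcl15* fell to 0.0678, 0.350, 0.194 and 0.0379 CPM (log2 −3.14 ± 0.61, adjusted p = 0.00526). In all 6 members were higher and 1 was lower, where 10.9% of genes were higher and 10.4% lower. Here too the cardiomyocyte markers (1.01 to 6.65 CPM with TNFα) and the neutrophil markers (0.2796 to 0.387 CPM) did not overlap those of Con, and their part was not tested.

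The cytokines were compared directly within LacZ cells, at the doses above, which differ. *Csf3* was 10.41 ± 0.33 higher on the log2 scale with IL-1β than with TNFα (adjusted p = 2.82e-07), which as a ratio of group counts was 1702, with a 95% exact interval of 471 to 14060. *Cxcl1* was higher by 5.32 ± 0.27, *Cxcl5* by 4.79 ± 0.40 and *Csf2* by 3.09 ± 0.62 (adjusted p = 0.0109, and 0.0665 and 0.0972 without replicate 1 and replicate 4). So 4 members were higher with IL-1β and none lower, against 4.84% and 4.78% of all genes. The summed fibroblast markers (34730 to 66860 CPM with IL-1β, 23350 to 30700 CPM with TNFα) and neutrophil markers (0.679 to 1.47 and 0.2796 to 0.387 CPM) did not overlap between these groups either, and their part was not tested. *Csf1* had the opposite order, with a log2 difference of −0.56 ± 0.18 that missed the threshold (adjusted p = 0.0872). In the fit blocked by replicate number, 6 were higher and *Csf1* lower (log2 −0.57, adjusted p = 1.04e-07), with *Cxcl2* (log2 1.22) and *Cxcl3* (log2 1.59) added to the higher ones, where 12.0% of genes were higher and 12.2% lower in that fit.

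TGFβ lowered the chemokines that unstimulated LacZ cells expressed. *Cxcl1* went to 1.10, 0.753, 2.64 and 2.54 CPM (log2 −2.07 ± 0.36, adjusted p = 0.0012), *Cxcl5* to 1.35, 1.88, 4.43 and 7.88 CPM (log2 −2.67 ± 0.53) and *Cxcl15* to 6 counts over the 4 libraries (log2 −4.96 ± 0.79). *Csf1* rose slightly, to 734, 564, 463 and 524 CPM (log2 0.49 ± 0.16, adjusted p = 0.0364), a call lost without any replicate (adjusted p = 0.0581 to 0.0674). That made 1 member higher and 3 lower, where 17.5% of genes were higher and 19.3% lower and the median gene was at log2 −0.17. Fibroblast markers were at 51540 to 60850 CPM with TGFβ and 27610 to 43310 CPM in Con, and cardiomyocyte markers at 3.11 to 14.5 and 14.7 to 111 CPM, without overlap. In iCre cells the same 4 genes passed the test in the same directions, *Cxcl1* at log2 −2.06 ± 0.34, *Cxcl5* at −2.96 ± 0.64, *Cxcl15* at −5.95 ± 0.79 (1 count over the 4 libraries against 107 in Con) and *Csf1* at 0.55 ± 0.16 (adjusted p = 0.0193, and 0.0738 without replicate 3), where 18.6% of genes were higher and 18.8% lower. Fibroblast markers in iCre were at 42150 to 57050 CPM against 17670 to 32240 CPM in Con, and the part of these cell types in the TGFβ response was not tested in either arm. The difference in TGFβ effect between the viruses was called for 0 of 8 members (0 at an unadjusted p under 0.05 and 0 by DESeq2), against 0.893% of genes higher and 3.62% lower in the edgeR fit. Of the 25210 genes, 3839 had an unadjusted p under 0.05 for this difference, and DESeq2 called 815 higher and 1372 lower.

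With bFGF, *Cxcl15* fell in LacZ cells to 4, 4, 1 and 0 counts (log2 −4.49 ± 0.70, adjusted p = 0.00443, and 0.0601 without replicate 3). *Cxcl1* was at 3.83, 5.18, 5.82 and 4.96 CPM (log2 −0.56 ± 0.16, adjusted p = 0.0479), and *Csf1* at 796, 408, 698 and 792 CPM (log2 0.73 ± 0.20, adjusted p = 0.0439). Both calls were fragile: that of *Cxcl1* was lost without any replicate (adjusted p = 0.0569 to 0.193) and that of *Csf1* without replicate 1, 3 or 4 (0.144 to 0.251). So 1 member was higher and 2 were lower, where 7.00% of genes were higher and 4.64% lower. Fibroblast markers were at 19510 to 26440 CPM with bFGF, below every Con library, and their part was not tested. With the replicate block *Cxcl5* was lower as well (log2 −1.68, adjusted p = 3.18e-07), where 14.2% of genes were higher and 13.1% lower. In iCre cells bFGF moved 0 of 8 members past the threshold in the edgeR fit (3 at an unadjusted p under 0.05, 1 by DESeq2), where 1.79% of genes were higher and 0.635% lower in the edgeR fit. An unadjusted p under 0.05 was reached by 4213 of the 25210 genes, and DESeq2 had 1138 higher and 860 lower. With the block *Csf1* was higher (log2 0.70) and *Cxcl1* (−0.78), *Cxcl5* (−1.38) and *Cxcl15* (−3.32) were lower, against 9.28% and 7.41% of genes, and 3 members passed without replicate 2.

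**Figure D2:**
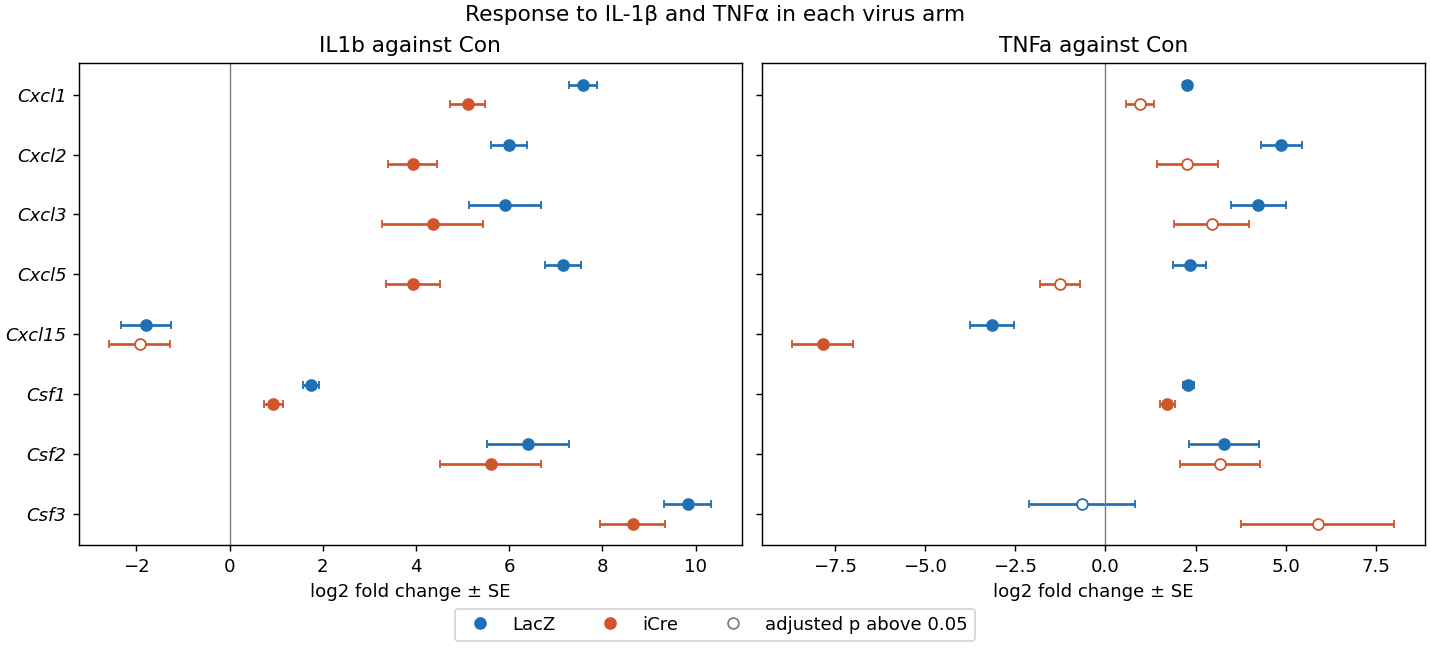
Log2 fold change of each gene over Con with its SE, for IL-1β (left) and TNFα (right), in LacZ (blue) and iCre (orange) libraries; open symbols did not reach an adjusted p of 0.05. With IL-1β all genes but *Cxcl15* rose in both virus arms, and with TNFα *Cxcl5* was at 2.34 in LacZ and −1.26 in iCre.

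IL-1β still raised these transcripts in iCre cells. *Cxcl1* reached 178, 64.3, 105 and 109 CPM (log2 5.11 ± 0.38 over iCre Con, adjusted p = 6.4e-05), *Cxcl5* 135, 252, 105.5 and 94.2 CPM (log2 3.94 ± 0.58) and *Cxcl2* 2.26, 1.45, 1.22 and 1.53 CPM (log2 3.93 ± 0.53). *Csf3* reached 2.84, 5.47, 2.08 and 5.49 CPM from 1 count over the 4 Con libraries, a ratio of 543 with a 95% exact interval of 97.1 to 21460. *Csf1* rose to 875, 552, 923 and 1082 CPM (log2 0.94 ± 0.21, adjusted p = 0.0134, and 0.0927 and 0.0755 without replicate 1 and replicate 3). *Csf2* had 33, 4, 24 and 31 counts and *Cxcl3* 7, 3, 12 and 16, each against 1 count in Con. Both passed (adjusted p = 0.00696 and 0.0213), and both lost the call without replicate 1, 3 or 4 (0.0536 to 0.058 for *Csf2* and 0.0923 to 0.13 for *Cxcl3*). In all 7 members were higher and none was lower, where 9.38% of genes were higher and 6.88% lower. Neutrophil markers were at 0.326 to 0.669 CPM, above the iCre Con libraries (at most 0.199 CPM), and their part was not tested. *Cxcl15* did not pass (log2 −1.93 ± 0.65, adjusted p = 0.0733) and was lower with the block (adjusted p = 2.81e-05), where 18.1% of genes were higher and 15.6% lower.

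Compared with LacZ under IL-1β, the iCre libraries had 8.05% of the mean *Cxcl1* level, 4.25% of *Cxcl5*, 6.50% of *Cxcl3*, 16.7% of *Cxcl2* and 14.3% of *Csf3*. The libraries of the virus arms did not overlap for any of these 5. The log2 differences were −3.65 ± 0.36 for *Cxcl1* (adjusted p = 0.000174), −4.58 ± 0.33 for *Cxcl5* (3.68e-05), −3.99 ± 0.71 for *Cxcl3* (0.00388), −2.60 ± 0.22 for *Cxcl2* (8.25e-05) and −2.83 ± 0.30 for *Csf3* (0.000248). *Csf2* had a log2 difference of −0.61 ± 0.66 (adjusted p = 0.584), 102 counts in LacZ and 92 in iCre libraries and overlapping groups. *Csf1* was at 62.3% of its LacZ level and lower in 4 of 4 replicate numbers, with overlapping groups (log2 −0.70 ± 0.23, adjusted p = 0.0633). In the fit with the replicate block it passed (log2 −0.71, adjusted p = 1.29e-06), and without replicate 2 as well (adjusted p = 0.0106). Thus 5 members were lower and none higher, where 8.98% of genes were lower and 7.14% higher, and with the block 6 were lower, against 14.9% lower and 14.6% higher. The summed fibroblast markers were also lower in iCre with IL-1β (20430 to 31880 CPM against 34730 to 66860), while the summed macrophage markers overlapped (44.3 to 119 and 77.4 to 180 CPM). Neither the cardiomyocyte markers (2.24 to 16.2 CPM in iCre, 0.57 to 1.85 CPM in LacZ) nor the neutrophil markers (0.326 to 0.669 and 0.679 to 1.47 CPM) overlapped, and the part of all these cell types in the differences was not tested.

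**Figure D3:**
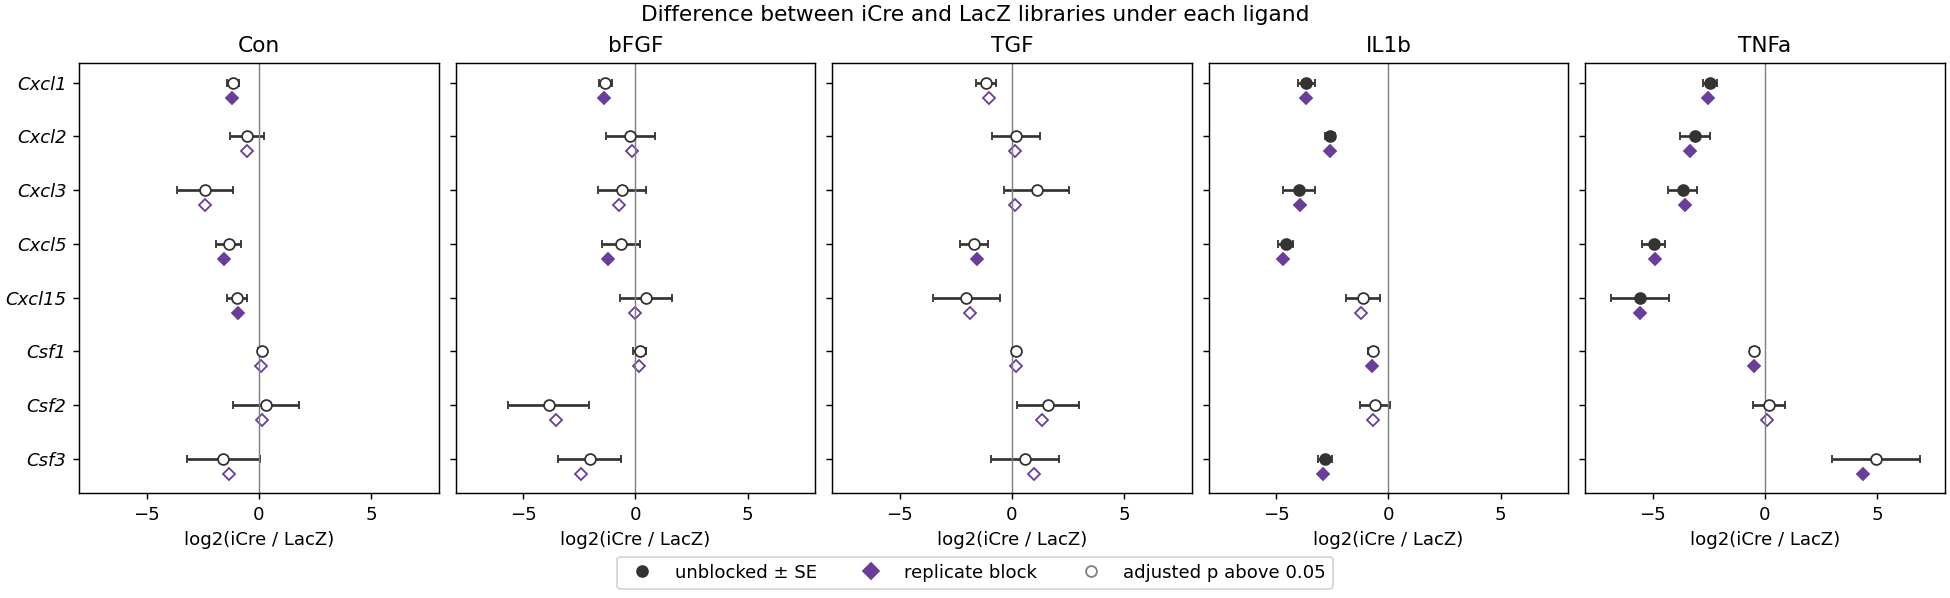
Log2 ratio of iCre over LacZ for each gene under each ligand, as black circles with SE from the fit without a block and as purple diamonds from the fit with the replicate block; open symbols did not reach an adjusted p of 0.05. The called values lie at −2.60 or below with IL-1β in the fit without a block, and *Csf3* with TNFα lies at 4.94.

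With TNFα, *Csf1* rose in iCre cells while *Cxcl1*, *Cxcl2*, *Cxcl3* and *Cxcl5* did not pass the test. *Cxcl5* was at 3.59, 7.04, 2.55 and 2.66 CPM, 3.18% of its LacZ level (log2 over iCre Con −1.26 ± 0.56, adjusted p = 0.131). *Cxcl1* was at 8.21, 9.59, 4.46 and 3.34 CPM, 18.1% of its LacZ level (log2 over iCre Con 0.96 ± 0.38, adjusted p = 0.0917). *Cxcl15* had 0 counts in all 4 libraries, against 107 over the 4 iCre Con libraries, which makes it at least 41.0-fold lower with a floor of 3 counts over the group. *Csf1* was at 1195, 1079, 1802 and 1724 CPM (log2 1.71 ± 0.21, adjusted p = 0.000438). So TNFα raised 1 member and lowered 1 in iCre cells, where 14.7% of genes were higher and 12.3% lower. All 8 members had an unadjusted p under 0.05 here, in either direction, as did 9534 of the 25210 genes. *Cxcl3* (log2 2.94 ± 1.03, 12 counts against 1 in Con) had an adjusted p of 0.061, and *Csf2* (15 counts against 1) of 0.0587. With the block 4 were higher (*Cxcl1* at log2 0.92, *Cxcl2* at 2.03, *Csf3* at 5.67 and *Csf1*) and 2 lower (*Cxcl5*, −1.05, and *Cxcl15*), against 18.9% and 17.3% of genes.

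*Csf3* had 0, 98, 1 and 1 counts in iCre TNFα, so all but 2 of its 100 counts came from replicate 2. The same library had 1.31 CPM of *Cxcl2*, where the other 3 had 0.178 to 0.357. Of the other replicate 2 libraries without IL-1β, none had more than 12 *Csf3* counts.

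Between the viruses under TNFα, *Cxcl5* (log2 −4.95 ± 0.51, adjusted p = 0.000206), *Cxcl3* (−3.66 ± 0.65), *Cxcl2* (−3.11 ± 0.68, adjusted p = 0.00745), *Cxcl1* (−2.45 ± 0.31, adjusted p = 0.000507) and *Cxcl15* were lower in iCre, and none of these groups overlapped. *Cxcl15* was at least 9.04-fold lower (20 counts against 0), with an adjusted p of 0.0195 that became 0.0599 without replicate 2, 0.102 without replicate 3 and 0.0734 in the block with a GC correction. *Csf1* was at 71.5% of its LacZ level (log2 −0.47 ± 0.20, adjusted p = 0.111) and passed with the block (log2 −0.49, adjusted p = 0.0241). *Csf2* had 10 and 15 counts in the LacZ and iCre groups. *Csf3* was higher in iCre by 4.94 ± 1.95 (adjusted p = 0.0925, and 0.028 with the block). Without the replicate 2 iCre TNFα library its log2 difference was 0.04. In total 5 members were lower and none higher, where 12.6% of genes were lower and 14.8% higher. With the block 6 were lower and 1 was higher, against 15.1% and 17.1%. The summed fibroblast markers were at 10070 to 18510 CPM in iCre and 23350 to 30700 CPM in LacZ with TNFα, and their part in the differences was not tested.

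In Con, *Cxcl1* was at 4.68, 4.10, 2.81 and 1.91 CPM in iCre, all below the lowest LacZ library at 6.89 CPM (log2 −1.15 ± 0.25, adjusted p = 0.0922). *Cxcl5* was at 4.45, 23.2, 5.94 and 5.28 CPM (log2 −1.35 ± 0.55) and *Cxcl15* at 0.720, 1.22, 0.638 and 0.452 CPM (log2 −0.97 ± 0.43). Each of the 3 was lower in iCre for 4 of 4 replicate numbers. No member was called without the block (0 of 8 in the edgeR fit, 3 at an unadjusted p under 0.05, 1 by DESeq2), where 0.0278% of genes were higher and 0.0476% lower in the edgeR fit. Of the 25210 genes, 3538 had an unadjusted p under 0.05 there, and DESeq2 called 751 higher and 595 lower. With the replicate block all 3 were lower, at log2 −1.19 (adjusted p = 0.000139), −1.54 (7.15e-06) and −0.94 (0.0141), where 6.79% of genes were higher and 7.70% lower. Without replicate 2, which had the highest *Cxcl5* in both arms, *Cxcl1* and *Cxcl5* passed in the fit without a block (adjusted p = 0.0466 and 0.00282). *Csf1* did not differ past the threshold in either fit, with levels of 412 ± 50.9 CPM (LacZ) and 453 ± 88.9 CPM (iCre) and a log2 difference of 0.12 ± 0.15.

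**Figure D4:**
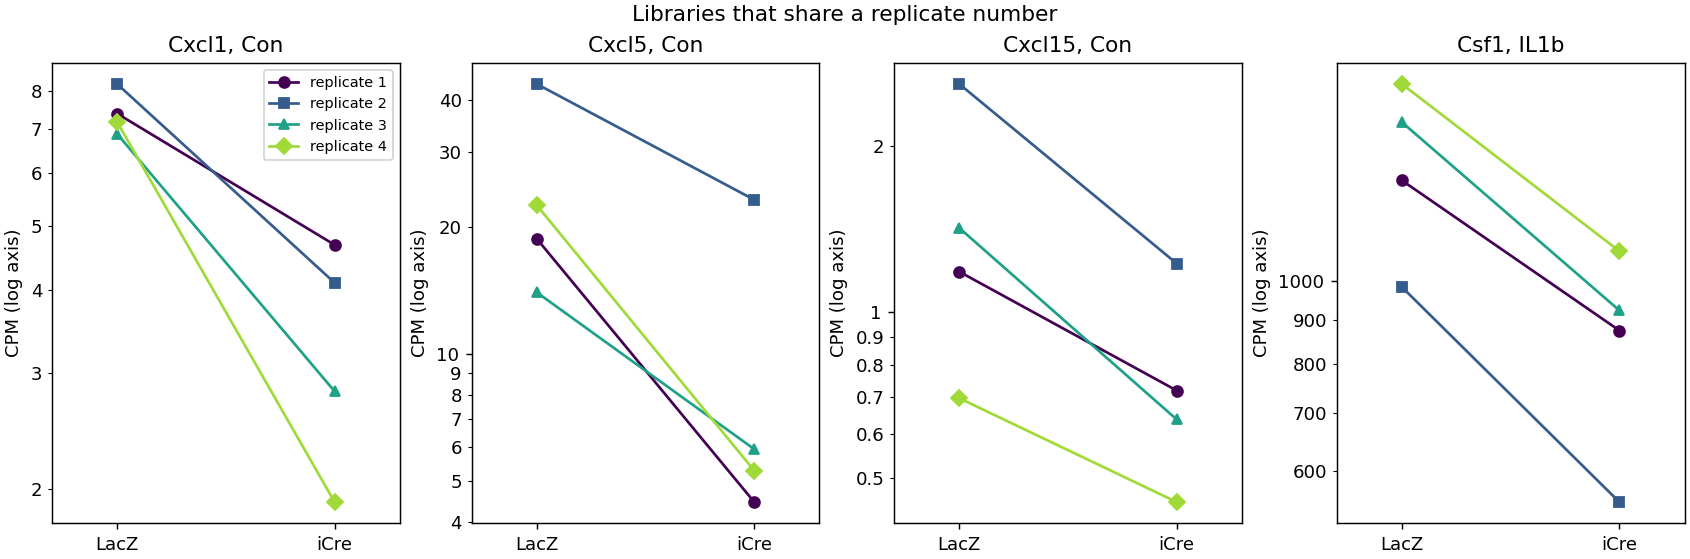
Levels in CPM (log axis) of *Cxcl1*, *Cxcl5* and *Cxcl15* in Con and of *Csf1* with IL-1β, with a line joining the LacZ and iCre libraries of the same replicate number. Each of the 16 lines falls from LacZ to iCre, while the replicate numbers lie at different heights. Only cases lower in iCre for 4 of 4 replicate numbers are drawn, so the shared direction follows from that selection. *Csf1* in Con, not drawn, was lower for 1 of 4 and *Cxcl2* in Con for 2 of 4.

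With bFGF *Cxcl1* was at 1.37, 2.97, 1.44 and 1.97 CPM in iCre, below every LacZ library, and *Cxcl5* at 1.23, 16.2, 1.496 and 1.73 CPM, lower for 4 of 4 replicate numbers. Neither passed without the block (0 of 8 members, 1 at an unadjusted p under 0.05, 1 by DESeq2). In that fit 0% of genes were called higher and 0% lower, though 2585 had an unadjusted p under 0.05 and DESeq2 called 259 higher and 222 lower. Leaving out replicate 2, both passed in the fit without a block (log2 −1.62 and −1.73, adjusted p = 0.0222 and 0.0124), where *Cxcl5* had been at log2 −0.65. With the block *Cxcl1* (log2 −1.38, adjusted p = 4.18e-05) and *Cxcl5* (log2 −1.23, adjusted p = 0.000392) were lower, where 6.64% of genes were higher and 7.22% lower. With TGFβ *Cxcl1* was at 1.76 ± 0.972 and 0.798 ± 0.202 CPM and *Cxcl5* at 3.89 ± 2.98 and 1.23 ± 0.812 CPM in LacZ and iCre. None of the 8 was called there without the block (2 at an unadjusted p under 0.05, 2 by DESeq2), where 2.51% of genes were higher and 5.87% lower in the edgeR fit, 5333 genes had an unadjusted p under 0.05 and DESeq2 called 1589 higher and 2199 lower. With the block *Cxcl5* was lower (log2 −1.54, adjusted p = 0.0176), where 9.67% were higher and 11.1% lower. A GC correction added to the block ended that call (log2 −1.10, adjusted p = 0.216). Without replicate 2, *Cxcl1* (log2 −1.48, adjusted p = 0.0281) and *Cxcl5* (log2 −2.44, adjusted p = 0.0117, against −1.69 with it) passed in the fit without a block.

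Whether the response to a ligand itself differed between the virus arms was tested as an interaction. The effects compared share the Con libraries of each arm with the tests above. For IL-1β the iCre effect minus the LacZ effect, on the log2 scale, was −2.50 ± 0.44 for *Cxcl1* (adjusted p = 0.00198) and −3.22 ± 0.67 for *Cxcl5* (adjusted p = 0.00666, and 0.0508, 0.0755 and 0.0617 without replicate 1, 3 and 4). The difference for *Cxcl2* was −2.06 ± 0.70 (adjusted p = 0.0931) and for *Csf1* −0.82 ± 0.29 (adjusted p = 0.106). For *Csf3*, whose Con libraries were near 0 in both arms, it was −1.21 ± 3.15 and not called. That left 2 members with a lower response and none with a higher one, where 4.95% of genes were lower and 2.76% higher. With the block *Cxcl2* (adjusted p = 0.0322) and *Csf1* (adjusted p = 0.000425) joined them, where 8.98% were lower and 7.90% higher, though *Cxcl2* did not pass once GC content was corrected too (adjusted p = 0.0653).

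For TNFα the same difference of effects was −3.61 ± 0.79 for *Cxcl5* (adjusted p = 0.00522), −1.31 ± 0.41 for *Cxcl1* (adjusted p = 0.038) and a fitted −4.70 ± 1.35 for *Cxcl15* (adjusted p = 0.0309). The *Cxcl15* value rests on 0 counts in iCre TNFα and was lost without replicate 1, 2 or 3 (adjusted p = 0.0827, 0.0608 and 0.181) or without the replicate 2 iCre TNFα library alone (0.0561), and that of *Cxcl1* was lost without replicate 1, 3 or 4 (0.137, 0.206 and 0.0577). So the difference was negative for 3 members and positive for none, where 7.70% of genes were lower and 8.38% higher. For *Cxcl15*, which TNFα lowered in both arms, it stands for a larger fall in iCre (fitted log2 −7.84 over Con, and −3.14 in LacZ). With the block *Cxcl2* (log2 −2.70, adjusted p = 0.044, and 0.0572 with a GC correction) and *Csf1* (−0.61) were lower and *Csf3* (5.67, and 1.60 and not called without the replicate 2 iCre TNFα library in the fit without a block) was higher as well, where 11.9% of genes were lower and 13.2% higher. Without a block *Cxcl2* was at −2.58 ± 1.11 (adjusted p = 0.138). It passed there without replicate 2 (−3.01, adjusted p = 0.0462) and without the replicate 2 iCre TNFα library (−3.67, adjusted p = 0.0175). For bFGF the interaction was called for 0 of 8 members (0 at an unadjusted p under 0.05, 0 by DESeq2) and for 0% of genes in each direction, with 765 genes at an unadjusted p under 0.05.

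Among the receptors, *Cxcr2* and *Csf3r* were barely detected. *Cxcr2*, the chemokine receptor, had at most 0.0973 CPM in any library and *Csf3r*, the G-CSF receptor, at most 0.332 CPM, and *Csf1r* was at 3.57 to 11.2 CPM in the group means. *Csf2ra*, the ligand-binding chain of the GM-CSF receptor, was at 8.31 to 14.1 CPM. *Csf2rb2*, a mouse β chain that serves IL-3, went from 4.62 ± 1.37 CPM in LacZ Con to 19.2 CPM with TNFα (log2 2.06) and 1.14 CPM with IL-1β (log2 −1.99), and was at 1.45 CPM in iCre TNFα (log2 −3.70 against LacZ). Of the 8 receptor-list genes tested, TNFα raised 3 in LacZ cells (10.9% of all genes) and 4 were lower in iCre than in LacZ with TNFα (12.6% of all genes). With the replicate block these counts were 5 (17.2%) and 6 (15.1%). *Ppbp*, the other ELR chemokine in the cluster, had a mean of 0.333 CPM in LacZ and 0.0333 CPM in iCre with IL-1β (log2 −3.19 ± 0.58, adjusted p = 0.00444).

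Of 13 transcription regulators of these genes, IL-1β raised 11 in LacZ cells and TNFα raised 10, where 11.1% and 10.9% of all genes were higher. With the block each cytokine had 12 regulators higher and 1 lower, against 16.3% and 17.3% of genes for IL-1β and 17.2% and 18.4% for TNFα. *Nfkbiz*, the atypical IκB that acts with NF-κB on secondary response genes, was at 34.5 CPM in Con, 248 with IL-1β (log2 2.86 ± 0.19) and 41.8 with TNFα, and *Cebpd* was at 97.7, 299.9 and 151 CPM. Both were higher with IL-1β than with TNFα (log2 2.57 ± 0.10 and 0.99 ± 0.13). *Nfkbia*, the feedback inhibitor of NF-κB, was at 27.6, 159 and 304 CPM and *Relb* at 29.2, 78.0 and 167 CPM in the same groups, and both were lower with IL-1β than with TNFα (log2 −0.93 ± 0.17 and −1.10 ± 0.08). In iCre cells given IL-1β, *Nfkbiz* was at 311 CPM (log2 0.31 ± 0.11 against LacZ, adjusted p = 0.0944, and 0.00747 with the block) and *Cebpd* at 347 CPM (log2 0.20 ± 0.10, adjusted p = 0.246). *Nfkbia* was lower in iCre than in LacZ (log2 −0.97 with IL-1β and −0.83 with TNFα). The AP-1 genes *Fosl1* and *Fos* were higher in iCre with both cytokines (log2 1.18 and 2.18 with IL-1β, 2.73 and 1.93 with TNFα). The difference was not limited to the cytokines: in Con it was 1.84 for *Fosl1* and 0.85 for *Fos* (adjusted p = 0.0907 and 0.356, and 8.54e-08 and 0.00129 with the block), and *Fosl1* was also higher with TGFβ (log2 1.38, adjusted p = 0.0272). Over the whole list, iCre cells given IL-1β had 3 regulators higher and 4 lower than LacZ cells, and those given TNFα had 4 higher and 5 lower, shares to be read against 7.14% and 8.98% of all genes with IL-1β and 14.8% and 12.6% with TNFα. With the block the higher counts were 5 and 6, against 14.6% and 17.1% of genes.

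In a list of 10 genes drawn up for the control of cytokine mRNA, not all of it through AU-rich elements, IL-1β raised 7 in LacZ cells and TNFα raised 6 (9 with the block), against the same 11.1% and 10.9% of all genes (17.2% for TNFα with the block). *Zc3h12a*, which encodes the RNase Regnase-1, went from 9.03 CPM to 182 with IL-1β (log2 4.35) and 18.9 with TNFα (log2 1.06), and *Tnfaip3*, which encodes A20, an inhibitor of NF-κB signalling, from 10.9 to 123 and 271 CPM. *Tnfaip3* is not itself a regulator of mRNA decay and is 1 of the genes counted as raised by each cytokine. *Zfp36*, which encodes tristetraprolin, had a higher level in iCre than in LacZ cells given IL-1β, 61.0 against 33.95 CPM (log2 0.83), and *Zc3h12a* was lower in iCre (log2 −0.87). Between the viruses, IL-1β libraries differed for 6 of these genes, 2 being higher in iCre and 4 lower, and TNFα libraries for 5, of which 2 were higher, where all genes gave 7.14% and 8.98% with IL-1β and 14.8% and 12.6% with TNFα. Of 14 receptor and TAK1 complex genes, *Il1r1* under IL-1β went from 333 CPM with LacZ to 230 with iCre (log2 −0.55), and *Tnfrsf1a* at 278 and 314 CPM with TNFα, which was not called. In that list the iCre cells given IL-1β had 2 genes higher and 3 lower, and those given TNFα had 2 higher and 4 lower, *Map3k7* being lower in each, beside those same shares of all genes. With the block 6 were lower with IL-1β (14.9% of all genes) and 5 with TNFα (15.1%).

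Over the 10 group means of log2 level, the patterns of 5 members were compared with those of 11395 protein-coding genes, as a description over points scaled together. Genes entered with a mean of at least 5 CPM in some group, which left out *Cxcl3*, *Cxcl15* and *Csf2* and which *Cxcl2* and *Csf3* met with IL-1β in LacZ alone. The genes most like *Cxcl1* were *Mmp8* (r = 0.986), *Steap4* (0.983) and *Cxcl5* (0.981), and those most like *Cxcl5* were *Cxcl1*, *Cyp7b1* (0.980) and *Map3k8* (0.978). *Cxcl2* was most like *Saa3* (0.982), *Nod1* (0.977) and *C3* (0.974), and *Csf3* most like *Lcn2* (0.983), *Sprr2e* (0.972) and *1110008P14Rik* (0.968). *Csf1* was most like *Tnfaip3* (0.966) and *Psmd10* (0.954), then *Ifngr2*. Among the members themselves r was 0.925 to 0.981 between *Cxcl1*, *Cxcl2* and *Cxcl5*, 0.754 to 0.890 between these and *Csf3*. For *Csf1* it was 0.771 with *Cxcl2*, 0.554 with *Cxcl1*, 0.484 with *Cxcl5* and 0.383 with *Csf3*.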

How the data were processed

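Per the labels and the methods, the authors aligned reads to mm10 with STAR and counted them per gene with HTSeq (0.10.0 in the submitters' processing notes). The deposited values were raw counts for 55414 gene identifiers in 40 libraries. The annotation release and strand setting are not given in the sources used here, and the labels and methods name different library kits. Genes with at least 10 counts over the 40 libraries were kept (25210), scaled by TMM, and tested with edgeR 4.0.16 (R 4.3.3), quasi-likelihood test, in the groups of each comparison, with Benjamini-Hochberg adjustment at 0.05. The SE is the absolute log2 fold change over the root of F. CPM used TMM library sizes over the 40 libraries. The study's methods name DESeq2, and DESeq2 1.42.0 was an alternative, beside RLE scaling, filterByExpr, no filter, each replicate number left out, all 40 libraries together, a replicate block, and the block with a GC correction. The fit without 1 library was added after seeing the data. Same-numbered libraries deviated together in every comparison (lowest correlation 0.311 over 10774 genes), so the blocked value is given where it changes the call of a member or moves a list's count by over 1.5 times. Where the labels do not tie a library to an animal, p-values measure the spread between these samples only. Exact intervals (95%) and the floor of 3 counts cover counting error only. The 8 members and all gene lists were chosen with earlier results of these data known. All 8 members were named, other genes only from those lists, and the 3 genes most like a member by Pearson's r over 10 group means. The main fit, the replicate block and DESeq2 were run on simulated data, for the IL-1β response in LacZ cells and the TNFα interaction. A limit on false calls was set only for the edgeR fits among these. The other alternatives were not simulated.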

Additional observations from a re-analysis of the deposited data

Results flagged for a closer look

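In 7 of 56 member groups with enough counts, replicate 2 lay far above the other 3 libraries. Chance marks about 1 in 20 independent groups for any of their libraries, high or low, and since same-numbered libraries deviated together here, that rate gives no expected number for this count. *Cxcl2* was at 8.842 CPM in LacZ TNFα (others 2.849 to 3.258) and at 1.308 CPM in iCre TNFα (others 0.178 to 0.3567). *Cxcl5* was at 18.07 CPM in LacZ bFGF (others 4.822 to 4.971), 23.17 CPM in iCre Con (others 4.451 to 5.941) and 16.23 CPM in iCre bFGF (others 1.23 to 1.73). *Csf3* was at 0.3019 CPM in LacZ bFGF (others at most 0.04478) and 2.331 CPM in iCre TNFα (others at most 0.03243). Replicate 2 also had the highest summed endothelial markers in 10 of 10 groups, and their part in these levels was not tested.

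The ligand effect differed between the virus arms, by the interaction test in edgeR, for *Cxcl1* (log2 −2.50 with IL-1β and −1.31 with TNFα), *Cxcl5* (−3.22 and −3.61) and *Cxcl15* with TNFα (−4.70). The calls of *Cxcl1* with TNFα and *Cxcl5* with IL-1β were lost without replicate 1, 3 or 4. The *Cxcl15* value is a fitted one, with 0 counts in iCre TNFα, and was lost without replicate 1, 2 or 3.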

How the results depend on the processing

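Of 1517 member values recomputed under an alternative, 0 reversed a call, 1367 kept their side of the threshold (43 of them uncalled in both fits, with a changed sign), 53 lost the threshold and 97 gained it. Of 144 member values 54 were called. The replicate block lost 1 of these and gained 27, and DESeq2 gained 18. The number of members called moved as follows. With DESeq2 it was 4 for TNFα in iCre cells (2 without), 1 for bFGF in iCre, 1 between viruses in Con, 1 with bFGF and 2 with TGFβ (0 without in each), 4 for the IL-1β interaction (2 without) and 7 for IL-1β against TNFα (4 without). With the replicate block the same member counts were 6, 4, 3, 2, 1, 4 and 7, and 6 for the TNFα interaction (3 without). DESeq2 also called more of the 25210 genes, with 4074 higher and 4007 lower for TNFα in iCre (3716 and 3101 without), 1138 and 860 for bFGF in iCre (450 and 160), 1063 and 1880 for the IL-1β interaction (696 and 1247) and 1815 and 1823 for IL-1β against TNFα (1220 and 1206). With the block and a GC correction the member counts were 6 for TNFα in iCre, 4 for bFGF in iCre, 3 in Con, 2 with bFGF, 5 for the TNFα interaction and 7 for IL-1β against TNFα, and 0 between viruses with TGFβ, as without the block. With all 40 libraries in 1 fit they were 6 for TNFα in iCre, 1 for bFGF in iCre and 1 between viruses with bFGF. With filterByExpr, which tests fewer of the low members, 3 were called between viruses with TNFα (5 without). Leaving out each replicate number gave 0 to 3 for bFGF in LacZ and in iCre, 4 to 7 for IL-1β in iCre, 0 to 2 between viruses in Con, with bFGF and with TGFβ, 1 to 3 for both inflammatory interactions, and 3 to 6 for IL-1β against TNFα. The share of all genes called is not given here for the GC-corrected, 40-library, filterByExpr and left-out fits. Member counts in those fits cannot be set against it. Other causes of these moves were not tested. Counts were low in most groups for *Csf2*, *Cxcl3*, *Cxcl15* and, outside IL-1β, *Csf3*, and the part of sequencing depth was not tested.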
